A study of Mus musculus with 5 samples.

Results

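The transcription factor p53 controls a set of target genes whose products stop the cell cycle, repair DNA, trigger cell death or restrain p53 itself. Expression of 37 genes of this pathway, the targets other than p21 together with Trp53 (which encodes p53), was followed in ID8 cells grown in serum or in tumour ascites. The genes were listed by name, with earlier results of these data known. Of the 37, 34 had at least 1 probe set annotated to that gene alone, out of 12393 genes measured in this way, and each was read from its probe set with the highest mean. Trp53, the pore-forming death protein gene Bax and the death receptor gene Eda2r had no such probe set and were not analysed here.

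ID8 is a mouse ovarian surface epithelial line that transformed in culture, forms tumours and ascites in the peritoneum, and is known to carry no Trp53 mutation. Total RNA was measured on Affymetrix arrays. The FBS group, labelled parental ID8 cells, grew in DMEM with 10% fetal bovine serum (3 arrays, replicates 1, 2 and 3). The ascites group grew for 7 days in DMEM with 10% ascites taken from mice bearing ID8 tumours (2 arrays, replicates 2 and 3). The sources used here do not say whether the ascites medium also held serum, how long the FBS cells were cultured, or whether replicates were separate cultures. If they were not, p-values measure only the spread between arrays, which may be technical.

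In cells at rest p53 is kept low by MDM2, a ubiquitin ligase that is itself a p53 target, by the related protein MDM4, and by the phosphatase WIP1, the product of Ppm1d. On stress p53 is stabilised and binds DNA sites made of a pair of decamers, units of 10 bases. Its targets include BH3-only proteins and death receptors, inhibitors of the cell cycle, and enzymes of nucleotide excision repair and lesion bypass.

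Promoter windows show where such letters stand in genes that rose and in genes that did not pass the test. The windows, from RefSeq (GRCm38.p6), run from 250 bases before to 50 bases after an annotated start. They were found for 29 of the 37 genes. The p53 consensus decamer, which reads the same on both strands and was searched with no mismatch, stood in at least 1 window of 11 of these 29 genes, or 37.9%, and in 9.55% of all 27025 genes with a window. It was found for 4 of the 9 windowed genes that rose in ascites (Mdm2, Aen, Ccng1 and Polk). It was also found for 5 of the 17 windowed genes that were measured and did not pass the test (Ppm1d, Ei24, Sesn1, Gadd45a and Gtse1). Many known p53 sites lie outside such windows, including those of Mdm2, which are in its first intron. Of the 2 windows of the cyclin-dependent kinase inhibitor gene Cdkn1a (p21), 1 held 2 decamers and the other held none.

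These stretches are printed to set 2 genes that rose, Mdm2 and Ccng1, beside 3 that did not pass, Ppm1d, Sesn1 and Gadd45a. Each is the 250 bases before a start, 5′ to 3′ on the strand of the gene, and capitals mark the decamer. The stretch of Mdm2 is chr10:117710759-117711008 (minus strand), that of Ccng1 chr11:40755287-40755536 (minus), that of Ppm1d chr11:85311004-85311253 (plus), that of Sesn1 chr10:41887189-41887438 (plus) and that of Gadd45a chr6:67037408-67037657 (minus). The decamer began 186 bases before the start in Mdm2, 185 in Ccng1, 132 in Ppm1d, 173 in Sesn1 and 40 in Gadd45a. A match describes the letters only and does not show that p53 binds there.
Mdm2: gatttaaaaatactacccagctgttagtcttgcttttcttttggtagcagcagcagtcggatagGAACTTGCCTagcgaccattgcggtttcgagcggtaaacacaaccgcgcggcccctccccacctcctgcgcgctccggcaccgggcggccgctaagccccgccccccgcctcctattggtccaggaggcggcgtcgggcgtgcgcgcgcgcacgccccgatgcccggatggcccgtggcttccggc
Ccng1: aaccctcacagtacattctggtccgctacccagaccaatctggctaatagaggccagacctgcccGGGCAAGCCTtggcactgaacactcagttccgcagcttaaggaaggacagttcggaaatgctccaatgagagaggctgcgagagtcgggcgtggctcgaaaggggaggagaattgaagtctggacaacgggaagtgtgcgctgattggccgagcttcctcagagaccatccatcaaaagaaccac
Ppm1d: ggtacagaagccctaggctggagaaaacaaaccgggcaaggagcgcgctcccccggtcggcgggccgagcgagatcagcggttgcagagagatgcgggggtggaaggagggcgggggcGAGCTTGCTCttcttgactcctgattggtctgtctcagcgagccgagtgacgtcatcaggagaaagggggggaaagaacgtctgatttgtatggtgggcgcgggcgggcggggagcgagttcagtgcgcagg
Sesn1: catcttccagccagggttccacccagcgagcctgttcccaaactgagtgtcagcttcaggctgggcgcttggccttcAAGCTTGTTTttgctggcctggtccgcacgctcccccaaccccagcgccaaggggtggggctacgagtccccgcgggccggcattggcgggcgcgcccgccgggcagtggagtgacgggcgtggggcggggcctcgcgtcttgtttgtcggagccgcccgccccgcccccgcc
Gadd45a: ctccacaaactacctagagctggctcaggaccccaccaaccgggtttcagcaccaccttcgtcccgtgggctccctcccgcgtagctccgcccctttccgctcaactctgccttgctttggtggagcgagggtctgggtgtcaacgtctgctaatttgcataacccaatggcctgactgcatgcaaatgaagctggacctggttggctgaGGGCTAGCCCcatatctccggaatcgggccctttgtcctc

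Signals are log2 array values. A change is the ascites mean less the FBS mean, given with its standard error (SE). A gene rose or fell where limma's p-value, adjusted by the Benjamini-Hochberg method over all 12393 genes, was below 0.05. By that test 10 of the 34 genes rose in ascites and 0 fell, with 19 at an unadjusted p below the same value (24.2% of all genes). Over all genes 2.69% rose and 2.59% fell. The median change was 0.57 over the 34 genes and 0.00 over all genes. Both ascites arrays lay above every FBS array for 23 of the 34 genes (18.6% of all genes) and below every FBS array for 4 (19.4% of all genes).

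FBS replicate 3 stood apart. Over all genes it differed from FBS replicates 1 and 2 by an SD of 0.427, where those differed from each other by 0.117 and the ascites arrays by 0.239. When FBS replicate 3 was left out, 15 of the 34 genes rose and 4 fell (9.17% and 10.9% of all genes), and the 10 genes that rose with all arrays were among the 15. Since FBS replicates 1 and 2 were so alike, the p-values without replicate 3 may be too small. Leaving out FBS replicate 1, FBS replicate 2, ascites replicate 2 or ascites replicate 3 gave 0 calls among the 34 genes and 0 among all genes, with 17, 14, 12 and 15 of the 34 at an unadjusted p below 0.05. The same fits put 16.8%, 16.3%, 22.2% and 19.5% of all genes there. The calls therefore needed all 5 arrays or the absence of FBS replicate 3, while each of the 10 genes stayed higher in ascites in each of these fits.

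**Figure D1:**
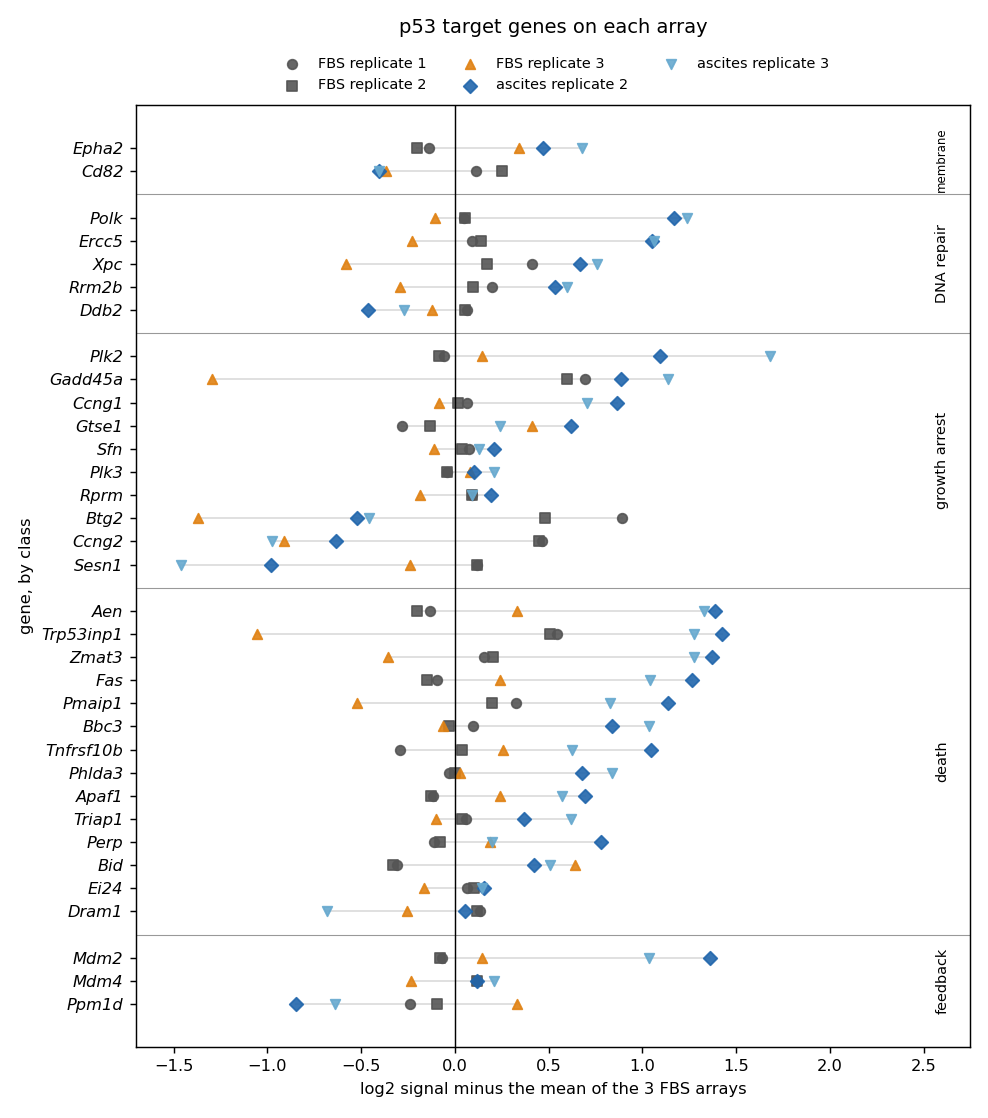
Log2 signal of each of the 34 genes on each of the 5 arrays, minus the mean of the 3 FBS arrays (x axis), by gene and class (y axis); symbols mark the arrays and grey lines span the lowest to the highest array. Both ascites arrays lie to the right of the FBS arrays for 23 genes, and FBS replicate 3 lies far to the left for Gadd45a, Btg2, Trp53inp1 and Ccng2.

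Of the 3 feedback genes, 1 rose and 0 fell (2.69% and 2.59% of all genes). Mdm2 read 10.69, 10.68 and 10.90 on the FBS arrays and 12.12 and 11.79 on the ascites arrays. Both ascites arrays were above all FBS arrays, and the rise was 2.29-fold (log2 change 1.20, SE 0.14, limma adjusted p = 0.029). A dimmer second probe set of Mdm2 also read higher on both ascites arrays, with a change of 1.99.

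Ppm1d, which encodes the phosphatase that removes activating phosphates from p53 and from damage kinases, had a negative change that did not pass. It read 7.24, 7.38 and 7.81 in FBS and 6.63 and 6.84 in ascites. The groups did not overlap, with both ascites arrays the lowest of the 5, and the change was -0.74 (95% confidence interval -1.28 to -0.20, limma adjusted p = 0.118). Mdm4, the inhibitor that masks the activation domain of p53, read 8.86, 8.86 and 8.51 in FBS and 8.86 and 8.95 in ascites. Its groups overlapped, and the change was 0.16 (95% confidence interval -0.21 to 0.53). The median of the 3 genes was 0.16, and 0.04 without FBS replicate 3. Ppm1d passed in 1 of the 13 other fits, that with array weights (-0.59, limma adjusted p = 0.0467). Those weights were 0.186 for FBS replicate 3 and 2.96 and 3.53 for FBS replicates 1 and 2. With FBS replicate 3 left out, Ppm1d did not pass (-0.57, limma adjusted p = 0.0514).

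Death genes, 14 of the 34 measured, gave 5 of the 10 calls. Of these 14, 5 rose and 0 fell (2.69% and 2.59% of all genes), and 13 had a positive change (6161 of all 12393 genes). Both ascites arrays lay above all FBS arrays for 12 (18.6% of all genes). The median change was 0.80, and 0.78 without FBS replicate 3.

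Bbc3 encodes PUMA, a BH3-only protein that frees BAX and BAK to open mitochondria. It read 8.21, 8.08 and 8.05 in FBS and 8.95 and 9.15 in ascites. The groups were clearly apart, and Bbc3 rose 1.91-fold (log2 change 0.94, SE 0.09, limma adjusted p = 0.0237). Pmaip1, which encodes the BH3-only protein NOXA, read 6.83, 6.70 and 5.98 in FBS and 7.64 and 7.33 in ascites. Both ascites arrays were the highest, but FBS replicate 3 differed from the mean of the other FBS arrays by -0.79, and the change of 0.98 did not pass (SE 0.30, limma adjusted p = 0.151).

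Further down the mitochondrial pathway, Apaf1, the scaffold of the apoptosome, had a change of 0.63 (limma adjusted p = 0.086), and Bid, the BH3-only protein that links death receptors to mitochondria, one of 0.46. Bid overlapped between the groups because FBS replicate 3 (9.04) was the highest of the 5 arrays. Without that array Apaf1 passed at 0.76 (limma adjusted p = 0.0137) and Bid at 0.78 (limma adjusted p = 0.0111). A dimmer probe set of each gene had a smaller change, 0.16 for Apaf1 and 0.02 for Bid.

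Of the death receptors, Fas, the receptor of FAS ligand, read 5.76, 5.71 and 6.10 in FBS and 7.12 and 6.90 in ascites. The ascites arrays were higher than all FBS arrays, and Fas rose by 1.15 (SE 0.16, limma adjusted p = 0.0378). Tnfrsf10b, the mouse TRAIL receptor, read 5.84, 6.17 and 6.39 in FBS and 7.18 and 6.76 in ascites. Its groups did not overlap either, but the change of 0.84 did not pass (SE 0.22, limma adjusted p = 0.113). The FBS signals of both lay within the range of marker genes of blood, immune and endothelial cells on these arrays (3.26 to 6.88), so expression in FBS was not established. On ascites replicate 3, Tnfrsf10b (6.76) also lay in that range, and Fas (6.90) lay just above it. The sizes of both changes are therefore not exact and may be understated. The FBS signals of Pmaip1 and the ascites signals of Ppm1d lay in the same range. The top of that range came from the macrophage marker Cd68 (6.88 on ascites replicate 2). The highest signal of any other marker was 6.69 (Csf1r on FBS replicate 3). Tnfrsf10b and Ppm1d (6.84) on ascites replicate 3, and Pmaip1 on FBS replicates 1 and 2 (6.83 and 6.70), lay above 6.69.

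Aen, a nuclease of apoptotic cells, read 9.26, 9.19 and 9.72 in FBS and 10.78 and 10.72 in ascites. The ascites arrays were nearly equal and far above all FBS arrays, and Aen rose 2.57-fold (log2 change 1.36, SE 0.19, limma adjusted p = 0.0383). Its other probe sets moved by 1.45 and 0.89. Zmat3, an RNA-binding zinc finger protein, read 10.27, 10.32 and 9.76 in FBS and 11.49 and 11.39 in ascites. The ascites arrays were alike and highest, and Zmat3 rose 2.50-fold (log2 change 1.32, SE 0.20, limma adjusted p = 0.0446). Zmat3 was the 1 call of the 10 that was lost when the variance was allowed to follow the signal.

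Phlda3, which inhibits AKT at the membrane, had the tightest FBS values of the 10 genes that rose, at 10.76, 10.79 and 10.82, against 11.47 and 11.63 in ascites. No FBS array came near the ascites arrays, and Phlda3 rose 1.69-fold (log2 change 0.76, SE 0.07, limma adjusted p = 0.0216). Trp53inp1, a nuclear protein that promotes p53-dependent death and autophagy, read 11.86, 11.82 and 10.26 in FBS and 12.74 and 12.59 in ascites. Every ascites array was above every FBS array, but FBS replicate 3 differed from the mean of the other FBS arrays by -1.58. The change was 1.35 (SE 0.57, limma adjusted p = 0.253), and 0.82 without that array (limma adjusted p = 0.0154).

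The remaining death genes did not pass. Triap1, a small mitochondrial protein that protects against apoptosis, had a change of 0.49 (limma adjusted p = 0.0778), and Perp, a tetraspan membrane protein, one of 0.49 (limma adjusted p = 0.264). Ei24, an endoplasmic reticulum protein, had a change of 0.15. Dram1, a lysosomal protein of autophagy, was the 1 death gene with a negative change, -0.31, and its ascites arrays disagreed (7.2 and 6.46). Without ascites replicate 3 the change of Dram1 was 0.06.

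Growth arrest genes split. Of 10 measured, 2 rose and 0 fell (2.69% and 2.59% of all genes). A positive change was found for 7 and a negative change for 3, and the median was 0.16. Without FBS replicate 3, 2 rose and 3 fell (9.17% and 10.9% of all genes).

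Plk2, a polo-like kinase that is active in G1, read 11.06, 11.03 and 11.26 in FBS and 12.21 and 12.80 in ascites. The ascites arrays were well above the FBS arrays though they differed from each other by more than the FBS arrays did. Plk2 rose 2.62-fold (log2 change 1.39, SE 0.20, limma adjusted p = 0.0432). Ccng1, cyclin G1, which recruits a phosphatase to MDM2, read 11.83, 11.78 and 11.68 in FBS and 12.63 and 12.47 in ascites. The groups did not overlap, and Ccng1 rose 1.73-fold (log2 change 0.79, SE 0.08, limma adjusted p = 0.0246). Its other probe sets moved by 0.95 and 1.42.

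Sesn1, sestrin 1, which restrains mTORC1 signalling, had a negative change just outside the threshold. It read 9.54, 9.54 and 9.18 in FBS and 8.44 and 7.96 in ascites. Both ascites arrays were below all FBS arrays, and the change was -1.22 (SE 0.20, 95% confidence interval -1.76 to -0.68, limma adjusted p = 0.0522). It passed in 5 of the 13 other fits, with adjusted p-values of 0.0112 to 0.267 over them, and its other 2 probe sets moved by -1.03 and -1.20.

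For 3 growth arrest genes the FBS arrays themselves were far apart. Btg2, an antiproliferative regulator of mRNA decay, read 11.86, 11.45 and 9.60 in FBS and 10.45 and 10.51 in ascites. The ascites values fell between FBS replicate 3 and the other FBS arrays. The change was -0.49 (SE 0.75) with all arrays and -1.18 without FBS replicate 3 (limma adjusted p = 0.0333). Ccng2, cyclin G2, a FOXO target as well, read 10.85, 10.83 and 9.47 in FBS and 9.75 and 9.41 in ascites. FBS replicate 3 sat with the ascites arrays here, and the change went from -0.80 (SE 0.50) to -1.26 without it (limma adjusted p = 0.0222).

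Gadd45a, which binds PCNA and cyclin-dependent kinase 1, read 10.99, 10.89 and 9.0 in FBS and 11.18 and 11.43 in ascites. Its ascites arrays were above all FBS arrays, by little over FBS replicates 1 and 2 and by much over FBS replicate 3. The change was 1.01 (SE 0.70, limma adjusted p = 0.46), and 0.36 without that array. Together with Trp53inp1, these were the 4 of 34 genes for which FBS replicate 3 lay more than 1 below the mean of FBS replicates 1 and 2, as it did for 2.39% of all genes. Why this array differed was not tested.

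**Figure D2:**
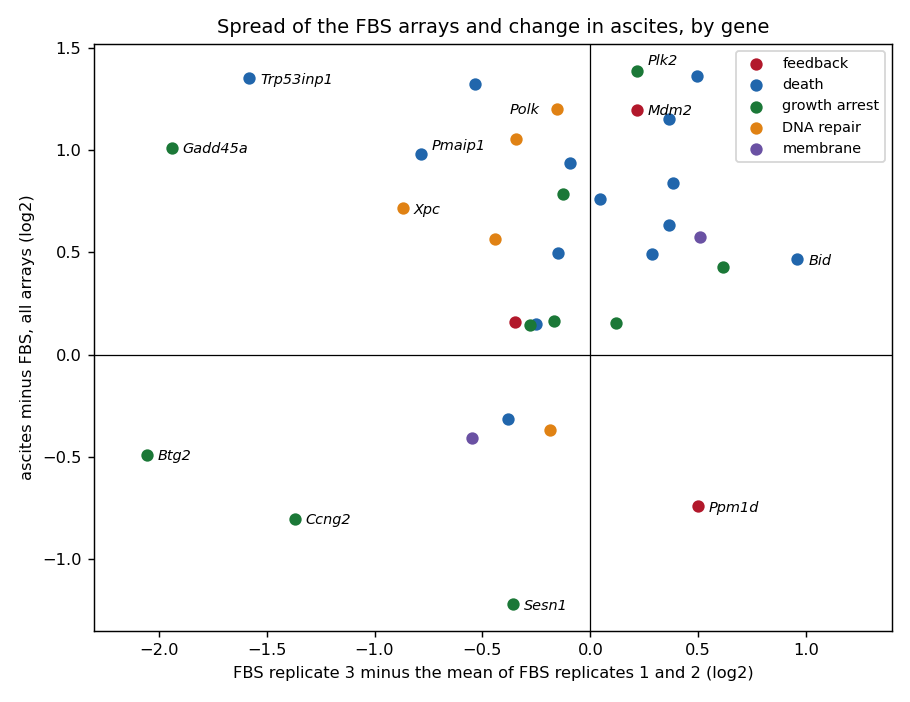
For each of the 34 genes, the log2 signal of FBS replicate 3 minus the mean of FBS replicates 1 and 2 (x axis) against the log2 change of ascites minus FBS over all arrays (y axis), coloured by class. Btg2 (-2.05), Gadd45a (-1.94), Trp53inp1 (-1.58) and Ccng2 (-1.37) lie farthest to the left, while Mdm2, Plk2 and Polk changed by over 1 with FBS arrays that lay close together.

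The other growth arrest genes had small changes that did not pass. Plk3, a polo-like kinase of the stress response, had a change of 0.15, Sfn, which encodes 14-3-3 sigma, one of 0.17, and Rprm, an inhibitor of G2 progression, one of 0.14. Sfn and Rprm had signals of 5.49 to 6.06, within the range of the marker genes of other cells, so their expression was not shown. Gtse1, a G2 and S phase protein that moves p53 out of the nucleus, had a change of 0.43 (95% confidence interval -0.27 to 1.13) with overlapping groups.

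DNA repair genes were mostly higher in ascites. Of 5 measured, 2 rose and 0 fell (2.69% and 2.59% of all genes). Both ascites arrays lay above all FBS arrays for 4 (18.6% of all genes). The median change was 0.72, and 0.43 without FBS replicate 3, which was below the mean of the other FBS arrays for all 5 genes.

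Polk, DNA polymerase kappa, which copies past bulky lesions, read 9.64, 9.65 and 9.49 in FBS and 10.76 and 10.83 in ascites. The spread within each group was small against the gap between them, and Polk rose 2.30-fold (log2 change 1.20, SE 0.07, limma adjusted p = 0.0158). Its second, dimmer probe set moved by 0.63. Ercc5, which encodes XPG, the nuclease that cuts 3′ of a lesion in nucleotide excision repair, read 9.07, 9.12 and 8.75 in FBS and 10.03 and 10.04 in ascites. The ascites arrays were nearly equal and above all FBS arrays, and Ercc5 rose 2.08-fold (log2 change 1.05, SE 0.13, limma adjusted p = 0.0339).

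The damage sensors of the same repair route did not share a direction. Xpc, which recognises distorted DNA, read 8.09, 7.85 and 7.10 in FBS and 8.35 and 8.44 in ascites. It was highest in ascites, with a change of 0.71 that did not pass (SE 0.32, limma adjusted p = 0.287), and 0.43 without FBS replicate 3. Ddb2, which recognises ultraviolet lesions, read 7.62, 7.61 and 7.43 in FBS and 7.09 and 7.28 in ascites. It was lowest in ascites, with a change of -0.37 (95% confidence interval -0.64 to -0.10, limma adjusted p = 0.118). Rrm2b, the p53-inducible subunit of ribonucleotide reductase, had a change of 0.57 (limma adjusted p = 0.139), and 0.42 without FBS replicate 3 (limma adjusted p = 0.0306).

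**Figure D3:**
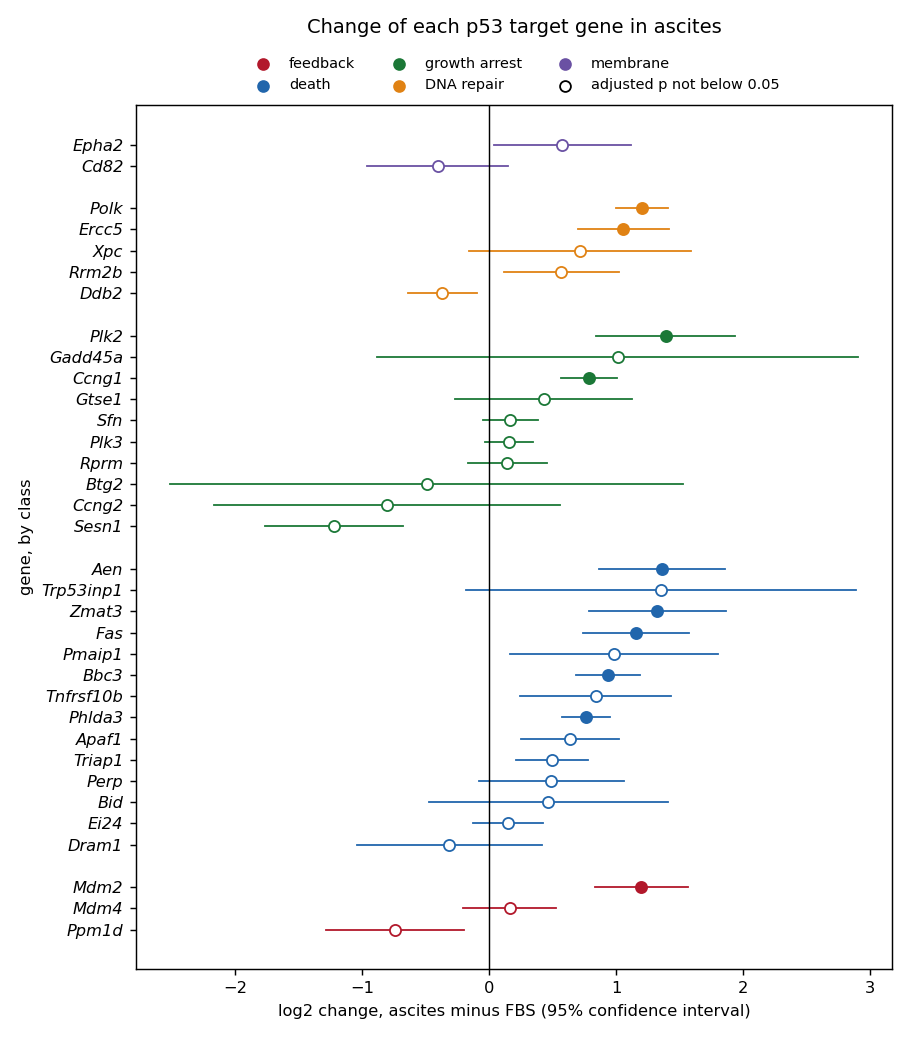
Log2 change of ascites minus FBS for each of the 34 genes (x axis), with its 95% confidence interval from the limma fit, by class (y axis); filled points have an adjusted p below 0.05. The 10 filled points all lie to the right of 0, while the intervals of Trp53inp1, Gadd45a, Btg2 and Ccng2 are the widest.

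The membrane protein genes had changes of opposite sign, and neither passed. Epha2, an ephrin receptor, had a change of 0.57 (limma adjusted p = 0.185), and Cd82, a tetraspanin that suppresses metastasis, one of -0.41 (limma adjusted p = 0.337). Without FBS replicate 3 both passed, Epha2 at 0.74 (limma adjusted p = 0.027) and Cd82 at -0.59 (limma adjusted p = 0.0219). The difference between any 2 classes or genes was not tested, and classes are described by their counts and medians only.

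Of the 34 genes, 14 had further probe sets, 17 in all, and 16 of these moved in the same direction as the one used. The exception was Cd82, whose second probe set moved by 0.00. Agreement was counted by sign only. Several further probe sets, such as that of Bid (6.42 to 6.47), lay within the range of the marker genes of other cells.

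Genes around these targets were followed in 3 lists from textbook knowledge. Of 18 measured regulators of p53, such as the damage kinases Atm and Chek2 and the deacetylase Sirt1, 0 passed limma's threshold. Over all genes 2.69% rose and 2.59% fell. An unadjusted p below 0.05 was found for 4 of the 18 (24.2% of all genes), and the median change of the 18 was 0.05. The kinase gene Hipk2, which phosphorylates p53, came closest, with 8.74, 9.03 and 9.19 in FBS and 9.83 and 10.00 in ascites. Its ascites arrays were the highest (change 0.93, limma adjusted p = 0.0545). Hipk2 had 5 probe sets, and only that with the highest mean is given here.

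Of 24 other measured p53 targets, 5 rose and 1 fell (2.69% and 2.59% of all genes), with a median of 0.39. Cdkn1a read 10.65, 10.60 and 10.62 in FBS and 13.38 and 13.30 in ascites. Its change of 2.72 (SE 0.05, limma adjusted p = 0.00312) was larger than that of any of the 34 genes. The others that rose most were Ak1, adenylate kinase 1, at 2.0, Igfbp3, which binds insulin-like growth factors, at 1.82, and Procr, the protein C receptor, at 1.68. Thbs1, the angiogenesis inhibitor thrombospondin 1, fell by 1.70 on the log2 scale (limma adjusted p = 0.0227), to signals within the range of the marker genes, so the size of the fall is not exact and may be understated. Sesn2, the paralogue of Sesn1 that also responds to amino acid shortage, had a change of 1.59 that did not pass (limma adjusted p = 0.0748), against -1.22 for Sesn1.

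Cell cycle genes that p53 lowers indirectly, through p21 and the DREAM repressor complex, were lower in ascites for 20 of 20 measured genes. Of these 6 fell and 0 rose (2.59% and 2.69% of all genes), and the median change was -1.02. The largest falls were those of Ccnb2, cyclin B2, by 1.74 on the log2 scale, of the centromere histone gene Cenpa by 1.69, of Birc5 (survivin) by 1.53 and of the kinesin gene Kif23 by 1.36. In FBS replicate 3 this list lay above the mean of the other FBS arrays by a median of 0.50, while the same difference had a median of -0.16 over the 34 genes. Whether p53 or p21 lowered the listed cell cycle genes in these cells was not tested.

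**Figure D4:**
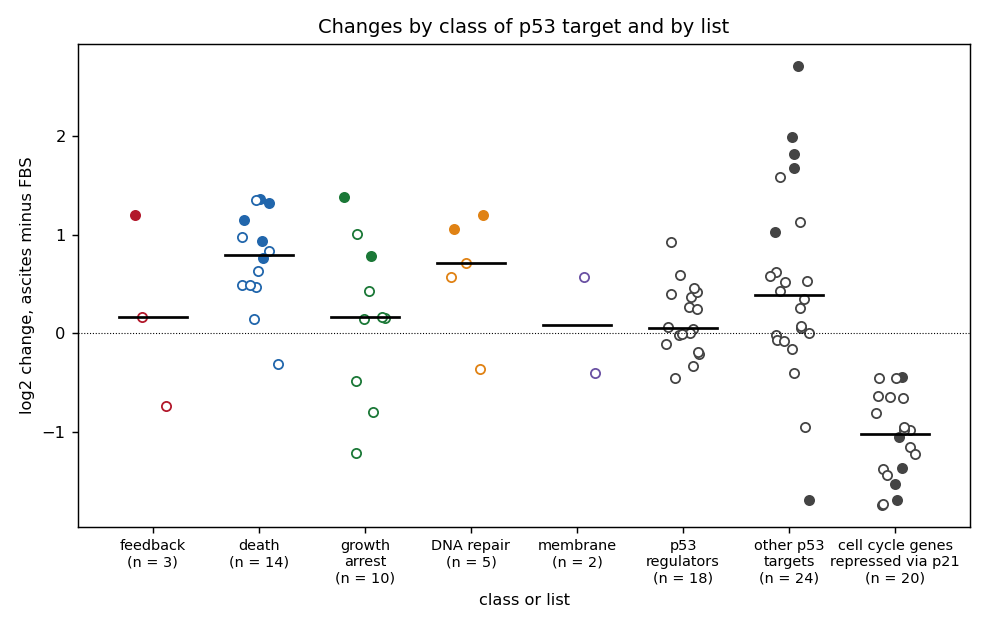
Log2 change of ascites minus FBS (y axis) for the genes of each class of p53 target and of 3 further lists (x axis); filled points have an adjusted p below 0.05, black bars are medians and points are spread sideways to show them. The death and DNA repair classes have medians of 0.80 and 0.72, and the feedback and growth arrest classes 0.16. The cell cycle genes, listed for their known repression through p21, have a median of -1.02.

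Markers of the labelled identity, except Krt7, read above the range of the marker genes of other cells in both groups, but most were lower in ascites. Of 8 ovarian surface epithelium markers, 7 were lower in ascites (6068 of all 12393 genes) and 1 was higher (Msln). By limma's threshold 2 of the 8 fell (Krt18 and Krt19) and 0 rose (2.59% and 2.69% of all genes). The largest change was that of Bnc1, at -3.19, which did not pass (limma adjusted p = 0.0605). Krt7 read 8.0, 8.08 and 5.66 in FBS and 5.37 and 5.12 in ascites. Its ascites signals lay within that range, so its expression in ascites was not shown. The summed signal of the 8 markers (log2 of the sum) was 16.17 in FBS replicates 1 and 2, 15.33 in FBS replicate 3 and 14.54 to 14.81 in ascites. FBS replicate 3 was thus nearer to the ascites arrays in this sum, and was below the mean of the other FBS arrays for 8 of 8 markers, by over 1 for 4 of them (median difference -0.96). The part of these markers in the results above was not tested. None of 27 measured markers of macrophages, T, NK and B cells, endothelium and erythroid cells passed limma's threshold. An unadjusted p below 0.05 was found for 3 of the 27 (24.2% of all genes). In RNA of whole cultures, a change in every cell and a change in the share of cells cannot be told apart.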

How the data were processed

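Total RNA of 5 samples was hybridised to Affymetrix mouse arrays. The deposited values are log2 signals, 1 per probe set, with the scale judged from their range. The authors processed the arrays with Affymetrix Expression Console, per the submitters' processing notes. Which version, summarisation and normalization they used is not given in the sources used here. Array medians lay between 7.40 and 7.47, so values were used as deposited. They carry no detection call, so the number of arrays and an unknown background limit the precision.

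Of 22690 probe sets, 64 controls were left out, 20380 had 1 gene in the platform annotation, 691 several and 1555 were unlisted. Each of 12393 genes was read from its probe set with the highest mean. No filter on dim genes was applied. Ascites was tested against FBS by limma 3.58.1 (R 4.3.3) with lmFit and eBayes, without covariates and two-sided, on 3 residual and 1.33 prior degrees of freedom. Benjamini-Hochberg adjustment ran over all genes. The fit was first checked on simulated data in which no array stood apart. That check therefore does not cover an array such as FBS replicate 3. The member genes, their classes and the lists were chosen with earlier results of these data known. Named genes were all members, and from each list Cdkn1a and up to 4 genes with the largest change past the threshold. Hipk2 and Sesn2 were named after their values were seen, as were the genes given as examples of the regulators. Promoter windows were matched by symbol.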

Additional observations from a re-analysis of the deposited data

How the results depend on the processing

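With 13 other settings, each of the 10 genes that rose kept its direction in every one. Calls among the 34 genes numbered 11 under renewed quantile normalization and with the lowest 25% of genes left out (10 rose and 1, Sesn1, fell in each), 12 with median centring (11 rose, and Sesn1 fell), 9 with the intensity trend and 10 with the mean of all probe sets. Array weights were 0.186 for FBS replicate 3, against 2.96 and 3.53 for FBS replicates 1 and 2, so p-values from them may be too small. With them, calls among the 34 genes numbered 18, of which 13 rose and 5 fell. Those that fell were Ppm1d (-0.59, limma adjusted p = 0.0467), Ddb2 (-0.42, limma adjusted p = 0.0243), Ccng2, Sesn1 and Cd82. They numbered 0 with FBS replicates 1 and 2 averaged, and between 0 and 19 when 1 array was left out. Fewer samples entered those last fits. Over all genes the count was 654, against 991 (592 up, or 59.7%, where 50.9% were up before) with median centring, 2612 with array weights, 0 with FBS replicates 1 and 2 averaged, and 0 to 2494 with 1 array left out. Quantile normalization gave 885, the intensity trend 478 and the mean of all probe sets 703. With the lowest 25% of genes left out, 884 of 9291 genes passed.

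The labels do not say whether same-numbered arrays were paired. The difference of replicate 3 less replicate 2 in FBS correlated at 0.0392 over genes with that in ascites. This cannot settle the pairing, because FBS replicate 3 stood apart. With the replicate block 0 of the 34 genes and 0 of all genes passed (14 and 1891 at an unadjusted p below 0.05), and the DNA repair median was 0.92. That median was 0.46 with array weights and 0.43 to 0.92 with 1 array left out. Dram1, which did not pass, had a change of -0.31 with all arrays and of -0.68 to 0.06 with 1 array left out, reversing without ascites replicate 3. The death, feedback and growth arrest medians moved by less than the spread between replicates of the class median signal (0.30, 0.17 and 0.51). For feedback and growth arrest that spread was larger than the median itself (0.16 in each). This comparison therefore cannot show that those 2 medians were stable, and the feedback median was 0.04 without FBS replicate 3. Where 1 ascites array was left, it was assumed to vary like the FBS arrays.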
